A study of Rattus norvegicus with 7 samples.

Results

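Ceramide synthesis in the meibomian gland, which supplies lipid to the tear film from the lid margin, was followed through 10 genes: 3 serine palmitoyltransferase subunits (Sptlc1, Sptlc2, Sptlc3), the reductase Kdsr, 5 ceramide synthases (Cers2 to Cers6) and the glucosylceramide synthase Ugcg. They were picked by symbol, and all 10 were found among the 17246 genes read from the count table. RNA sequencing compared 4 control libraries with 3 UVB libraries of meibomian glands from wild-type female Sprague-Dawley rats aged 3 months. In the UVB group the shaved upper eyelid received ultraviolet B light at 300.0 mJ/cm2 in 5 min on each of 5 days, and the controls are listed as untreated. The labels do not say whether controls were shaved, how long after the last exposure the glands were taken, or whether each library is 1 animal, so p-values measure the spread between these libraries. The column names give the group but no replicate number of the labels, so the controls are lettered a, b, c and d here and the UVB libraries a, b and c.

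Ceramide is the lipid backbone of sphingomyelin and the glycosphingolipids and, in epidermis, of the barrier lipids between cornified cells. Serine palmitoyltransferase joins serine to an activated fatty acid, Kdsr reduces the product, and a ceramide synthase adds a second fatty acid whose chain length depends on the paralog. A desaturase or hydroxylase then completes ceramide, which Ugcg turns into glucosylceramide and the sphingomyelin synthases into sphingomyelin. Meibum, the secretion of the gland, is rich in wax and sterol esters of very long chains and also holds ceramides.

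Libraries held between 20680237 and 28784941 expected counts, and totals did not separate the groups (exact two-sided permutation test over 35 splits, p = 0.886). The labelled tissue matched its markers, with the wax synthase gene Awat2 at 10767 to 12062 TPM in the controls and 6961 to 7744 TPM after UVB (TPM is a transcript level corrected for gene length and library size). Awat2 fell (log2 fold change -0.66, edgeR adjusted p = 0.00453), as did 1 other of the 8 meibocyte markers, the lipid droplet gene Plin2, named after its values were seen (-0.45, edgeR adjusted p = 0.00826), while the summed meibocyte markers overlapped. Scd, also named after its values were seen, made up most of that sum, with a control mean of 27692 of 46796 TPM. Of these 8 markers, 3 had a log2 fold change above 0 and 5 below (median -0.086). Over all tested genes, 6.74% were called lower by the same test. Other tissues were present too: Krt14 of basal epithelium was between 4731 and 7657 TPM, Krt10 of suprabasal epidermis between 726 and 1134 and Acta1 of skeletal muscle between 530.4 and 912. Of 15 summed marker lists, 4 were higher in every UVB library than in every control (basal epithelium, endothelium, neutrophil, mast cell), 2 were lower (Schwann cell, melanocyte) and 9 overlapped. Of the 5 basal epithelium markers, 2 had a log2 fold change above 0 and 3 below (median -0.021), and Krt14 was the most abundant. S100a8 and S100a9 (control means 1354 and 336 TPM) made up most of the neutrophil sum of 1690. Kit (17.8 TPM) made up most of the mast cell sum of 24.2. Csf3r of the neutrophil list was at 0.120 TPM in controls and 1.12 after UVB. S100a8, S100a9, Kit and Csf3r were named after their values were seen. In such bulk samples, fewer cells of a type and less RNA per cell cannot be told apart, and the part of any marker list in the results below was not tested.

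In the controls the members spanned from Cers5 to Sptlc3 in this order of mean TPM: Cers5, Cers4, Sptlc1, Kdsr, Cers2, Sptlc2, Cers3, Ugcg, Cers6 and Sptlc3. Cers5 stood above 97.4% of all tested genes and Sptlc3 above 27.5%. Neighbours in this order whose control ranges overlapped were Cers5 and Cers4, Kdsr and Cers2, and Ugcg and Cers6; every other member was above the next one in all 4 controls. The plot of levels by library shows the gap between the 2 leading ceramide synthases and the rest.

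**Figure D1:**
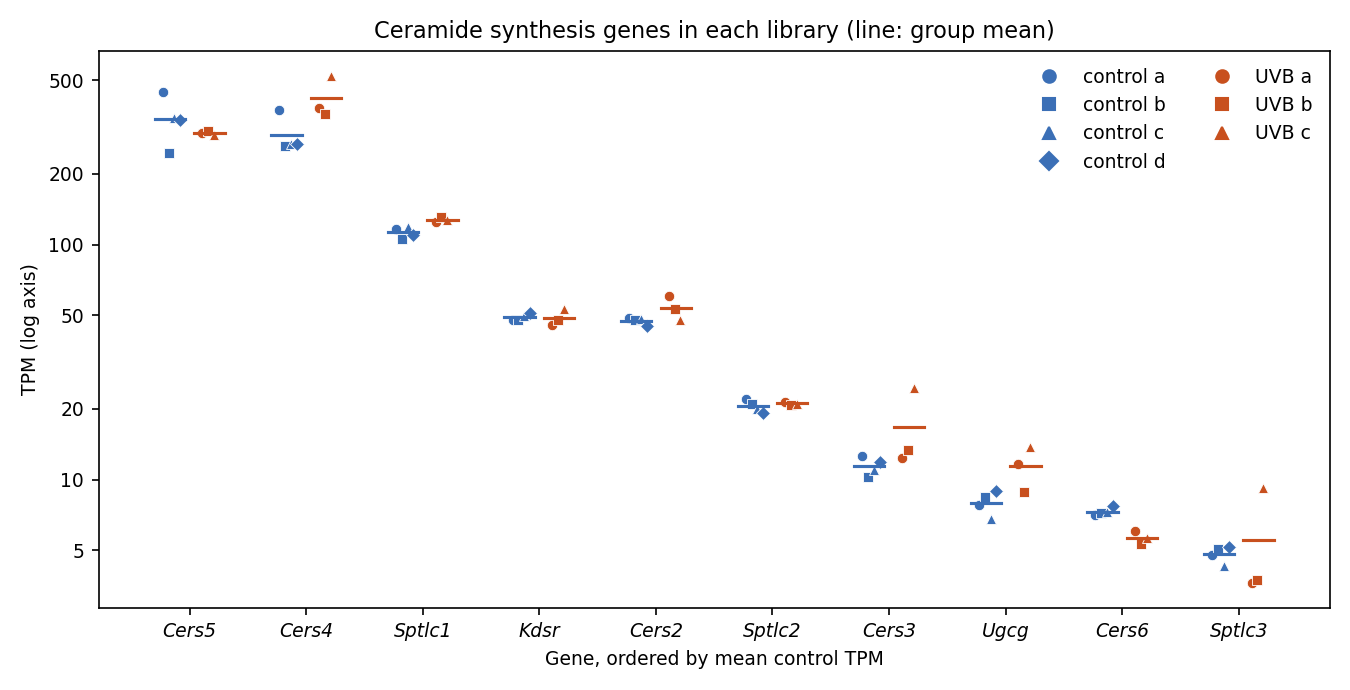
TPM of the 10 genes in each library on a log axis, controls in blue and UVB libraries in orange, with a line at each group's mean. Cers4 and Cers5 are the highest points in every library, and Cers6 is lower in all 3 UVB libraries than in the 4 controls. UVB c is the highest point for Cers3, Cers4, Ugcg and Sptlc3 and, by a small margin, for Kdsr.

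After UVB, 1 of the 10 genes passed the threshold of an adjusted p under 0.05 in edgeR's quasi-likelihood test over all genes: Cers6, which fell. By the same rule 13% of the 13709 tested genes were called, 6.3% of them higher and 6.74% lower, so the members' share is near the background. None of the 10 was called higher, although 5 had an unadjusted p under 0.05, of which 4 were above 0 (Sptlc1, Cers3, Cers4, Ugcg). Over all tested genes 29.5% had an unadjusted p under 0.05, and 14% had one and a log2 fold change above 0. limma-voom also called Cers6 alone, and DESeq2 called Cers6, Cers4 and Ugcg, where it called 17.9% of all genes. The groups did not overlap in TMM-scaled CPM (counts relative to the library's effective size) for 2 of the 10, Sptlc1 and Cers6, against 26.6% of all tested genes. The median log2 fold change was 0.17 over the 10 genes and -0.0058 over all genes tested.

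**Figure D2:**
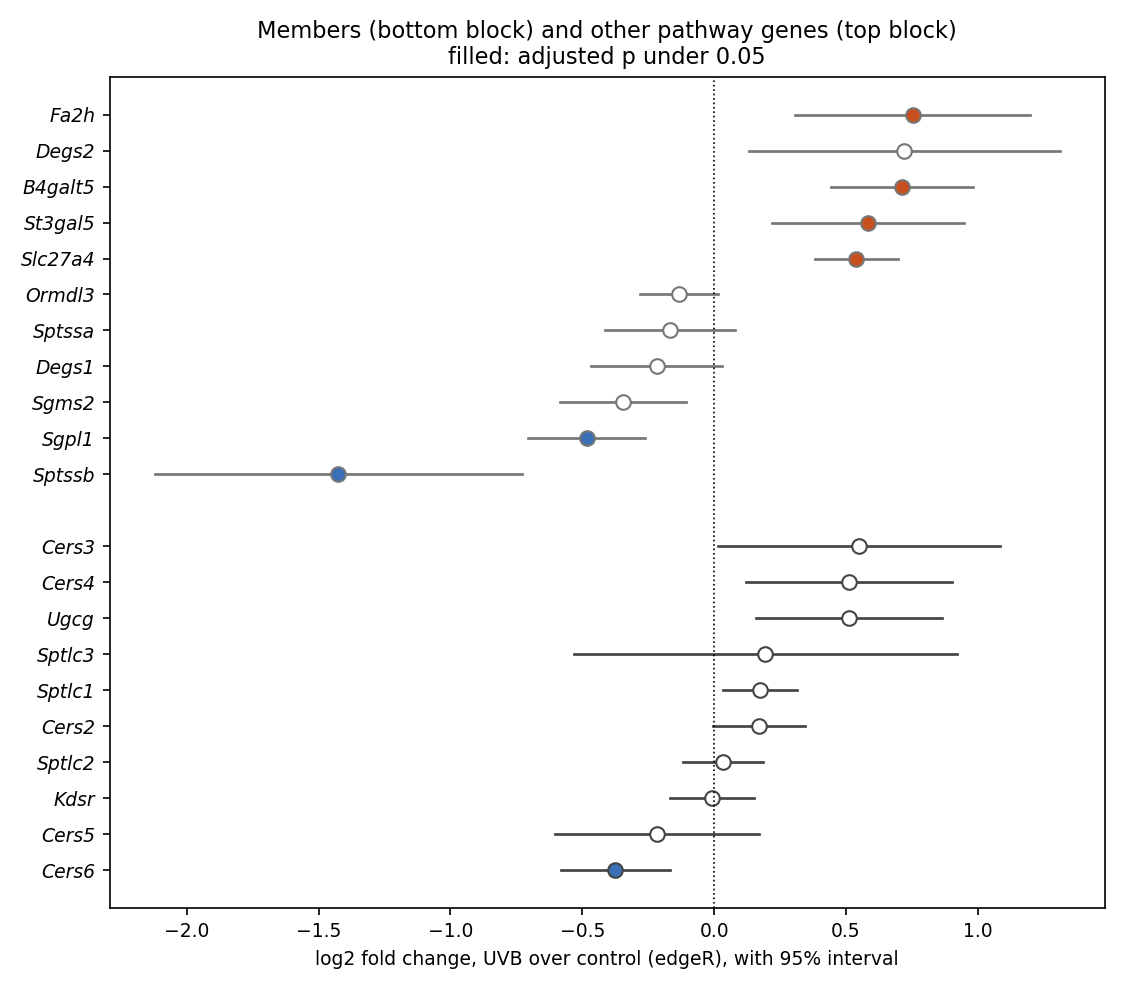
Log2 fold change of UVB over control from edgeR with its 95% interval, for the 10 genes (bottom block) and for other sphingolipid genes (top block), filled where the adjusted p was under 0.05. Cers6 is the only filled member. The top block holds every called gene of the pathway list and 6 fixed partners, so 6 of its 11 genes are filled. Of the 46 pathway genes tested, 6 were called (13.04%), beside 13% over all genes.

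Sequences before the RefSeq gene start are shown for the 5 members on which the values below turn: Cers6, which was called; Cers4 and Cers5, the most abundant paralogs; and Cers3 and Sptlc3, which stood apart in 1 UVB library. Each is the 250 bases before the start in rat assembly GRCr8, 5′ to 3′ on the gene's strand: Cers6 at chr3:74038611-74038860, plus strand; Cers4 at chr12:7649360-7649609, plus strand; Cers5 at chr7:132776787-132777036, minus strand; Cers3 at chr1:129748322-129748571, plus strand; Sptlc3 at chr3:147301320-147301569, plus strand. Capitals mark matches, on either strand, to the GC box GGGCGG, the CCAAT box CCAAT, the TATA motif TATAAA, the E-box CACGTG or the AP-1 motif TGANTCA.
Cers6: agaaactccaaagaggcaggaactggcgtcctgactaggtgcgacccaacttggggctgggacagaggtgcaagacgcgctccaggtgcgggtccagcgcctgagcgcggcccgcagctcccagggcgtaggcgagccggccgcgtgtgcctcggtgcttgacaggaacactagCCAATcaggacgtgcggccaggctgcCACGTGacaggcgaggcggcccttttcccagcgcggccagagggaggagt
Cers4: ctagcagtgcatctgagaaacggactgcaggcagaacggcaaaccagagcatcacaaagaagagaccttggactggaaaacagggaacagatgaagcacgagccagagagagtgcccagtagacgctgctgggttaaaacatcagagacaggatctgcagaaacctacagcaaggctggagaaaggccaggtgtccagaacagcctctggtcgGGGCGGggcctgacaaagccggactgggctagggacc
Cers5: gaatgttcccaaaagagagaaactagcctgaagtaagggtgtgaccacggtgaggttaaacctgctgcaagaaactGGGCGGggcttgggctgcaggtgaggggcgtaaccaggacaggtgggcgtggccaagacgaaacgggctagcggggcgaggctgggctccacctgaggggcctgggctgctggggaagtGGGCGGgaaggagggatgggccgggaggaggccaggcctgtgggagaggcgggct
Cers3: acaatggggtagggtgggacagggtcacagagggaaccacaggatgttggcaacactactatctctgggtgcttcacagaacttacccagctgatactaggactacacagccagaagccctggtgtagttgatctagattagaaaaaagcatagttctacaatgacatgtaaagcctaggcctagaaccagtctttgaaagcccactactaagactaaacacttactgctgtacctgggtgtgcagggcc
Sptlc3: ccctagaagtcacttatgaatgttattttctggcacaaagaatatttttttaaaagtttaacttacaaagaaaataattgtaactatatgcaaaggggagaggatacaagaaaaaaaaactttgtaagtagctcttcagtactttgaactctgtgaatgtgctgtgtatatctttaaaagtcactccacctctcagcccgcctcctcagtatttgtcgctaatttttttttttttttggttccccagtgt
Cers6 held 1 CCAAT box and 1 E-box, Cers4 held 1 GC box and Cers5 held 2, while the windows of Cers3 and Sptlc3 held none of the 5 motifs; no matches overlapped. Of 33469 windows of this length, 30.5% held a GC box, 34.0% a CCAAT box, 12.9% a TATA motif, 5.59% an E-box and 6.34% an AP-1 motif. The windows also differed in CG dinucleotides, with 22 in Cers6, 11 in Cers5, 7 in Cers4, 2 in Sptlc3 and 0 in Cers3, beside a median of 5 over all windows. Cers3 and Sptlc3 had the fewest CG of the 9 members with a window; the others ran from 7 in Cers4 to 31 in Cers2. These matches describe letters and not bound sites, and the build named for the counts is another one.

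The serine palmitoyltransferase subunits kept the order Sptlc1, Sptlc2, Sptlc3 in all 7 libraries, and Sptlc3 varied most after UVB. Sptlc1 (NCBI gene 361213), the subunit shared by all forms of the enzyme, measured 117, 105, 119 and 109.6 TPM in the controls, in the order a to d, and 125, 132 and 127 TPM after UVB, in the order a to c. Every UVB library was above every control, by a small margin. Means were 113 ± 6.41 TPM (SD, n = 4) and 128 ± 3.61 TPM (SD, n = 3), and the log2 fold change was 0.17 (standard error 0.063, edgeR adjusted p = 0.102; 0.0553 to 0.239 over the alternatives).

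Sptlc2 (NCBI gene 366697), a catalytic subunit for the usual palmitoyl substrate, measured 22.0, 21.1, 19.9 and 19.1 TPM in the controls and 21.5, 20.9 and 20.9 TPM after UVB. The UVB values lay inside the control range. Its log2 fold change of 0.033 had a 95% interval from -0.12 to 0.18 (edgeR adjusted p = 0.785).

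Sptlc3 (NCBI gene 296188), the alternative catalytic subunit known from skin, was the scarcest member, at 4.78, 5.07, 4.28 and 5.17 TPM in the controls and 3.65, 3.74 and 9.18 TPM after UVB. UVB a and UVB b were below every control and UVB c was above all of them. The means of 4.825 ± 0.399 TPM (SD, n = 4) and 5.52 ± 3.17 TPM (SD, n = 3) therefore hide opposite positions. With all libraries the log2 fold change was 0.19 (standard error 0.32, edgeR adjusted p = 0.729), and it was -0.39 without UVB c (edgeR adjusted p = 0.142; 0.142 to 0.923 over the alternatives). The ratio of Sptlc2 to Sptlc3 in TPM was 3.70 to 4.65 in the controls, 5.89 in UVB a and 5.58 in UVB b, and 2.28 in UVB c.

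Kdsr (NCBI gene 360833), which reduces the product of that first step, varied little between the controls. It measured 47.9, 47.7, 49.5 and 51.2 TPM there, a coefficient of variation of 3.30%. After UVB it measured 45.4, 47.7 and 53.0 TPM, values on both sides of the control range. The fit gave a log2 fold change of -0.0087 (95% interval -0.17 to 0.15, edgeR adjusted p = 0.951).

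Among the ceramide synthases, Cers4 and Cers5 together supplied most transcripts. Their ratio did not overlap between the groups, although neither gene was called by edgeR. Cers4 (NCBI gene 304208), which prefers long saturated acyl chains and is known from sebaceous gland and hair follicle, measured 375, 262, 267 and 268 TPM in the controls and 379.6, 359 and 521 TPM after UVB. Control a lay at the level of the UVB libraries a and b, and UVB c was the highest library. The means were 293 ± 54.7 TPM (SD, n = 4) and 419.8 ± 88.5 TPM (SD, n = 3).

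The log2 fold change of Cers4 was 0.51 (standard error 0.17, edgeR adjusted p = 0.0867), which did not pass. It rested on single libraries: it was 0.66 and passed without control a (edgeR adjusted p = 0.0195), and was 0.33 without UVB c (edgeR adjusted p = 0.222, the highest over its alternatives). Cers4 overlaps the receptor gene Vom2r60 in GRCr8, and the sources used here do not say whether strand was used in counting. Sptlc2, Sptlc3, Kdsr, Cers3 and Cers6 overlap loci there that have only a LOC symbol, so with Cers4 and Cers2 the levels of 7 members could include reads of another gene.

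Cers5 (NCBI gene 366984), which makes ceramide with a palmitoyl chain, measured 445, 246, 345 and 338 TPM in the controls and 299, 306 and 292 TPM after UVB. The 3 UVB libraries were close to each other and all lay between control b and control d. The controls spread widely, at 343 ± 81.4 TPM (SD, n = 4) against 299 ± 7.03 TPM (SD, n = 3). For Cers5 the log2 fold change was -0.22 (standard error 0.17, edgeR adjusted p = 0.431). It was -0.34 without control b and -0.059 without control a.

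Within each library the ratio of Cers4 to Cers5 does not depend on library scaling. It was 0.842, 1.07, 0.773 and 0.793 in the controls and 1.27, 1.17 and 1.79 after UVB, so that every UVB library was above every control. Cers4 supplied 39.3% to 45.7% of the summed TPM of Cers2 to Cers6 in the controls and 48.7% to 58.5% after UVB. The share of Cers5 ran from 42.9% to 50.9% in the controls and from 32.7% to 41.5% after UVB. The sum itself overlapped, at 703 ± 133 TPM (SD, n = 4) and 795 ± 84.1 TPM (SD, n = 3). The ratio was chosen after its values were seen. Neither it nor the shares, which are scores over the members, were tested. As single genes, 26.6% of all tested genes did not overlap between the groups in CPM.

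**Figure D3:**
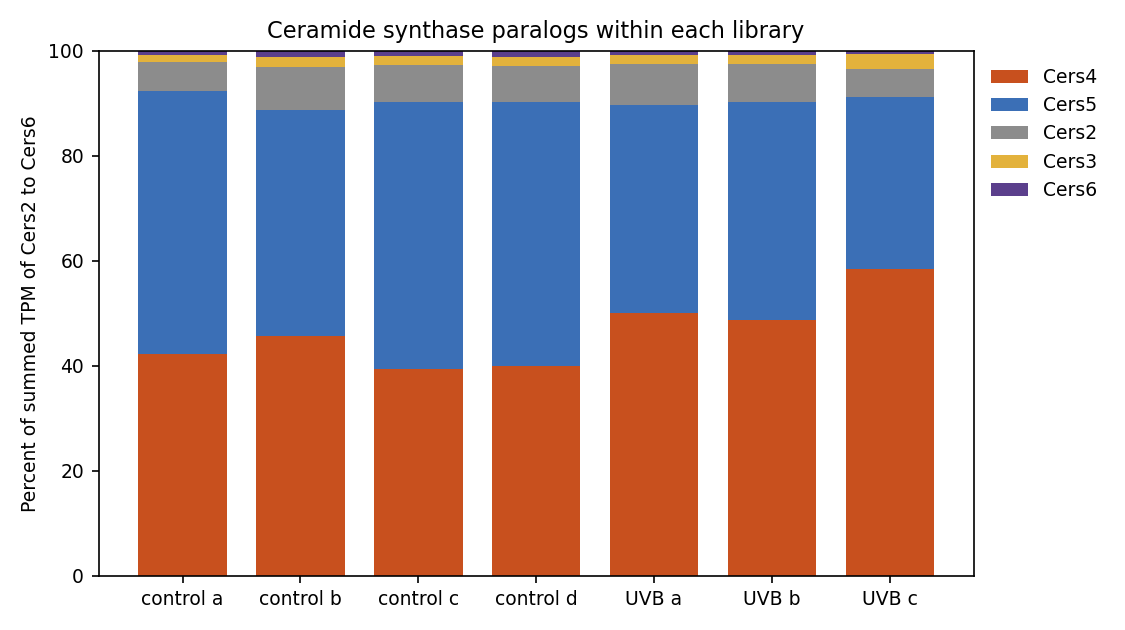
Share of each paralog in the summed TPM of Cers2 to Cers6, in percent, 1 bar per library. Cers4 takes less than 46% of the sum in each of the 4 controls and more than 48% in each of the 3 UVB libraries.

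Cers2 (NCBI gene 310667), which makes ceramides with very long acyl chains, measured 48.8, 47.7, 48.3 and 45.2 TPM in the controls and 60.3, 53.0 and 47.9 TPM after UVB. UVB a and b were above the controls and UVB c was among them. Its log2 fold change was 0.17 (standard error 0.077, edgeR adjusted p = 0.174). Its counts were not whole in any of the 7 libraries and it overlaps Setdb1 in GRCr8, so its level is uncertain.

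Cers3 (NCBI gene 499174), the synthase for the very long and ultra-long chains of epidermal barrier ceramides, measured 12.6, 10.3, 11.0 and 11.9 TPM in the controls and 12.4, 13.4 and 24.6 TPM after UVB. UVB a and b lay within or just above the control range, and UVB c was at 2.15 times the control mean. Its log2 fold change of 0.55 (standard error 0.23, edgeR adjusted p = 0.158) became 0.17 without UVB c (edgeR adjusted p = 0.386, the highest over its alternatives).

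Cers6 (NCBI gene 366065), the other paralog that makes ceramide with a palmitoyl chain, measured 7.07, 7.18, 7.29 and 7.73 TPM in the controls and 6.05, 5.30 and 5.65 TPM after UVB. Every UVB library was below every control, and both groups were tight, at 7.32 ± 0.289 TPM (SD, n = 4) and 5.67 ± 0.375 TPM (SD, n = 3). The counts behind it were 339 to 454 in controls and 283 to 323 after UVB. Cers6 fell by 0.37 on the log2 scale (standard error 0.092, 95% interval -0.58 to -0.17, edgeR adjusted p = 0.0287), to 0.771 of the control level. Its size stayed between -0.42 and -0.32 on the log2 scale over 15 alternatives, but the call was lost in 6 of them (highest adjusted p 0.0866, edgeR without UVB b).

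Ugcg (NCBI gene 83626), which adds glucose to ceramide as the first step to glucosylceramide and the more complex glycolipids, measured 7.80, 8.41, 6.77 and 8.92 TPM in the controls and 11.6, 8.85 and 13.8 TPM after UVB. UVB b fell just under the highest control, and UVB a and c were above all controls. The means were 7.975 ± 0.925 TPM (SD, n = 4) and 11.4 ± 2.49 TPM (SD, n = 3). For Ugcg the log2 fold change was 0.51 (standard error 0.16, edgeR adjusted p = 0.0611). It passed without UVB b (0.66, edgeR adjusted p = 0.0301) and did not without UVB c (0.35, edgeR adjusted p = 0.191, the highest over its alternatives).

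Some members depended on single libraries. Leaving out UVB c moved Sptlc3, Cers3, Cers4 and Ugcg downwards, and Kdsr slightly, to -0.074. Cers2 moved up, to 0.25 (edgeR adjusted p = 0.0666), while Sptlc1, Sptlc2, Cers5 and Cers6 moved by less than 0.05 on the log2 scale in that fit. Cers5 moved most with controls a and b.

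**Figure D4:**
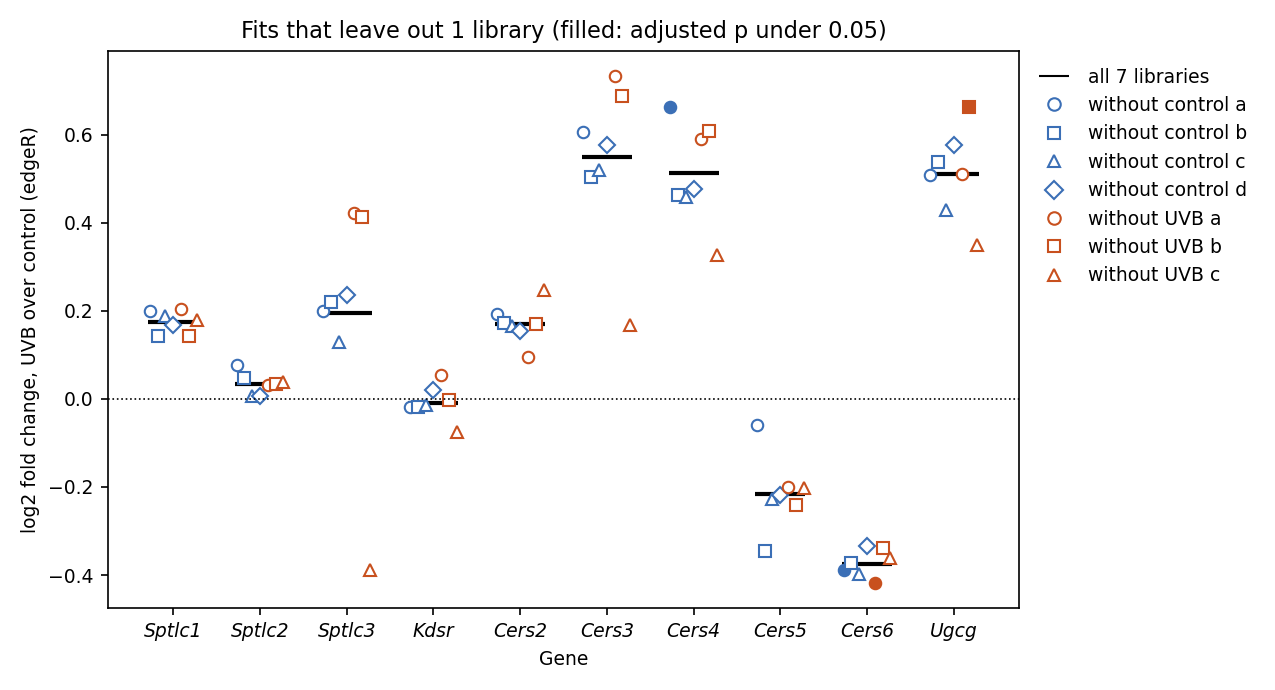
Log2 fold change of each gene from edgeR with all 7 libraries (black bar) and without each library in turn (points, filled where the adjusted p was under 0.05). Sptlc3 changes sign without UVB c, from 0.19 to -0.39, and Cers6 stays between -0.42 and -0.33 but is filled only without control a or UVB a.

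UVB c stood apart most for Cers3 and Sptlc3, the members known from epidermis, at 2.15 and 1.90 times the control mean. Cers4, Ugcg and Kdsr were also highest in UVB c, at 1.78, 1.73 and 1.08 times the control mean. Cers3 and Sptlc3 were at least 1.5 times higher there, in normalised CPM, than in each of the other 6 libraries, which held for 0.700% of all tested genes in UVB c; this fold was chosen after the values were seen. Beside them, the summed TPM of 8 suprabasal and cornifying markers was 4281 in UVB c, 3327 in UVB a and 2782 in UVB b, against 2647 to 3260 in the controls. Krt10 and Krt1, the latter named after its values were seen, made up most of that sum. Over the whole UVB group, 5 of the 8 genes had a log2 fold change above 0 and 3 below, with a median of 0.060. In UVB c, Krt1, Krt10, Lor, Dsg1, Dsc1 and Tgm3 were each highest of the 7 libraries, Lor and Dsg1 by small margins. Of all tested genes, 13.3% were highest there. Lor, Dsg1, Dsc1 and Tgm3 were named after their values were seen. Casp14, also named after its values were seen, lay within its control range in UVB c, at 14.4 against 8.70 to 15.3 TPM. Krt77, of the same list, went against the sum, at 15.0 to 47.2 TPM in the controls and 0.590, 0.260 and 0.410 TPM in UVB a to c (log2 fold change -5.90, edgeR adjusted p = 0.00348). Hair follicle markers, 6 genes, summed to 786 TPM in UVB c, 319.6 in UVB a and 286 in UVB b, against 659 to 1002 in the controls. Skeletal muscle markers, 5 genes, were lowest in UVB c, at 1364 TPM against 1944 to 2771 in the controls. None of the markers in these 3 sums was at 0 in any library.

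The summed meibocyte markers did not set UVB c apart from the other UVB libraries. Their sum was 38757 TPM there, 39429 in UVB a and 45369 in UVB b, against 42633 to 51687 in the controls. Scd made up most of it, at 25000 TPM in UVB c, 25283 in UVB a and 30815 in UVB b. Of the 12 tested genes for fatty acid supply and acylceramide, 6 were highest of the 7 libraries in UVB c and 1 was lowest there, beside 13.3% and 14.8% of all tested genes. Some led by a small margin, as Slc27a4 at 173 TPM against 170.3 in UVB b. Examples named after their values were seen are the lipoxygenase gene Alox12b, at 15.3 TPM in UVB c against 5.97 to 8.57 in the controls, and the hydroxylase gene Cyp4f39, at 699.9 TPM against 915 to 1321. Neither was called (edgeR adjusted p = 0.351 and 0.202). Of the 17 genes for release and breakdown of ceramide, 4 were highest and 5 lowest in UVB c. Of the 4 partners of serine palmitoyltransferase, 0 were highest and 2 lowest there. For desaturation and hydroxylation, 2 of 3 were highest and 0 lowest, and for sphingomyelin and glycolipid, 2 of 10 were highest and 1 lowest. The part of these tissue markers in the values of Cers3, Sptlc3 and Cers4 was not tested.

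**Figure D5:**
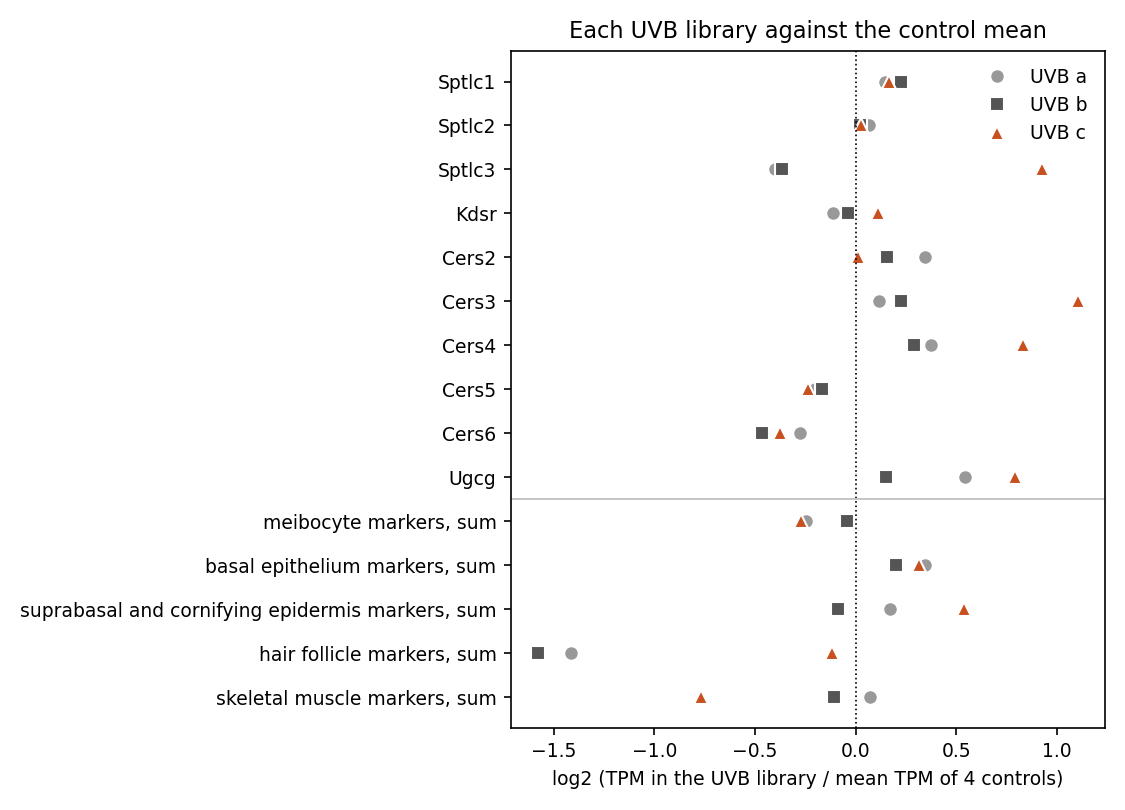
Each UVB library's TPM over the mean of the 4 controls, on a log2 axis, for the 10 genes and for the summed markers of 5 tissues. UVB c (triangles) is furthest right for Cers3, Sptlc3, Cers4, Ugcg and the suprabasal markers, and lies near the control mean for hair follicle markers, where UVB a and b are below -1.4.

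The other genes of the pathway were taken from a list of 51 chosen by function, of which 4 were not analysed here and 1 was under the low-count filter. Of the 46 tested, 4 were called higher and 2 lower, 13.04% in all, beside 13% over all genes. Their median log2 fold change was -0.054, with 21 above 0 and 25 below.

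Among the partners of serine palmitoyltransferase, 1 of 4 was called. Sptssb, a small subunit that widens the choice of acyl chain, fell from 3.71 ± 0.497 TPM (SD, n = 4) to 1.40 ± 0.695 TPM (SD, n = 3). It ranged from 3.09 to 4.28 TPM in the controls and was 1.40, 0.700 and 2.09 TPM in UVB a to c, all below. For Sptssb the log2 fold change was -1.42 (standard error 0.31, edgeR adjusted p = 0.0203; up to 0.0587 over the alternatives).

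The other small subunit gene, Sptssa, had 126 ± 9.32 TPM (SD, n = 4) and 113 ± 19.7 TPM (SD, n = 3) and did not pass (log2 fold change -0.17, edgeR adjusted p = 0.339). The ratio of Sptssa to Sptssb was 30.8 to 38.5 in the controls and 58.0 to 129 after UVB. Ormdl3, which encodes an inhibitor of the enzyme, had a log2 fold change of -0.13 (edgeR adjusted p = 0.215).

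Of 3 tested genes for desaturation and hydroxylation, 1 was called. Fa2h, which adds a hydroxyl group to the fatty acid before it enters ceramide, rose from 15.8 ± 2.77 TPM (SD, n = 4) to 26.8 ± 7.30 TPM (SD, n = 3), at 26.1, 19.9 and 34.4 TPM in UVB a to c against at most 18.2 in a control. Its log2 fold change was 0.75 (standard error 0.19, edgeR adjusted p = 0.0399); it was 0.53 without UVB c and the call was lost in 11 of 15 alternatives (edgeR adjusted p up to 0.0915, without control b).

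Degs1, the desaturase of the main route, had 232 ± 22.7 TPM (SD, n = 4) and 201 ± 31.7 TPM (SD, n = 3; log2 fold change -0.22, edgeR adjusted p = 0.223). Degs2, which can hydroxylate to phytoceramide, a form known from epidermis, measured 69.5, 43.1, 37.6 and 36.2 TPM in the controls and 68.8, 66.8 and 95.8 TPM after UVB. Control a was at the UVB level, as for Cers4. The log2 fold change of Degs2 was 0.72 (standard error 0.25, edgeR adjusted p = 0.106) and 0.99 without control a, where it passed (edgeR adjusted p = 0.00878).

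Of 10 tested genes that turn ceramide into sphingomyelin or glycolipid, 2 were called, beside 13% called over all genes. Both rose, and both act downstream of Ugcg. B4galt6, named after its values were seen, was not called (log2 fold change 0.22, edgeR adjusted p = 0.509). B4galt5, which makes lactosylceramide, rose from 5.00 ± 0.779 TPM (SD, n = 4) to 7.85 ± 0.471 TPM (SD, n = 3), a log2 fold change of 0.71 (standard error 0.12, edgeR adjusted p = 0.00786) that passed in all 15 alternatives. St3gal5, which adds sialic acid to give the ganglioside GM3, rose from 7.675 ± 1.70 TPM (SD, n = 4) to 11.7 ± 0.585 TPM (SD, n = 3), a log2 fold change of 0.58 (standard error 0.16, edgeR adjusted p = 0.0445). That call was lost in 10 of 15 alternatives (edgeR adjusted p up to 0.110, without UVB a).

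The sphingomyelin synthase gene Sgms2 had 28.7 ± 2.03 TPM (SD, n = 4) and 22.6 ± 3.47 TPM (SD, n = 3) and did not pass (log2 fold change -0.35, edgeR adjusted p = 0.0615). It passed without UVB c (-0.47, edgeR adjusted p = 0.0239). In each library the ratio of Sgms2 to Ugcg was 3.07 to 4.30 in the controls and 1.77 to 2.33 after UVB, without overlap. That ratio too was chosen after its values were seen and was not tested. Of the gene ratios formed, Cers4 to Cers5, Sptssa to Sptssb, Degs1 to Degs2, and Sgms1 and Sgms2 to Ugcg did not overlap. The ratios of Cers3 to Cers2, Cers6 to Cers5, Sptlc1 to Sptlc2 and Sptlc2 to Sptlc3 overlapped. Sgms1 was named after its values were seen. No such share was computed over other pairs of genes.

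Of 17 tested genes for release and breakdown of ceramide, 1 was called. Sgpl1, the lyase that removes sphingosine phosphate from the pathway, fell from 94.4 ± 10.7 TPM (SD, n = 4) to 67.9 ± 6.94 TPM (SD, n = 3), with every UVB library below every control. Sgpl1 had a log2 fold change of -0.48 (standard error 0.099, edgeR adjusted p = 0.0155). The call was lost in 1 alternative, without UVB c (edgeR adjusted p = 0.0515).

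Of 12 tested genes for fatty acid supply and acylceramide, 1 was called. Slc27a4, which activates and takes up long fatty acids in epidermis, rose from 113 ± 3.63 TPM (SD, n = 4) to 165 ± 11.5 TPM (SD, n = 3). The controls ran from 110.3 to 118 TPM and the UVB libraries were at 152, 170.3 and 173 TPM. Its log2 fold change of 0.54 (standard error 0.071, edgeR adjusted p = 0.00348) had a 95% interval from 0.38 to 0.70 and passed in all 15 alternatives.

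Genes with the most similar pattern to 2 members were found by Pearson correlation of log2 CPM over the 7 libraries, among 10483 genes with a mean count of at least 100. For Cers6 they were Tyro3 (r = 0.992), Magix (r = 0.991) and Hs6st1 (r = 0.991). For Cers3 they were Ptk6 (r = 0.991), Fads2 (r = 0.969) and Rc3h2 (r = 0.965). The points share 2 groups and a common set of libraries, so these values describe likeness in 7 points. Ptk6 showed the same single high library as Cers3, at 6.23 TPM in UVB c against 2.60 to 3.59 TPM in the other 6.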

How the data were processed

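Per the labels' protocols, total RNA of dissected glands was column-purified with DNase treatment and sequenced on Illumina libraries. The submitters' processing notes name FastQC, Trimmomatic, DRAGEN, Picard and the build rn7, without roles or versions; annotation, counting settings and strand handling are not given in the sources used here. The authors deposited expected counts (estimated counts per gene, 12.5% of values not whole) and TPM, which summed to 82.0% to 84.1% of the full TPM scale per library. Because commas in gene names shift cells, each row was read backwards from its last cell; 5 rows lacking a value were left out of each table. The ratio of count to TPM was off by over 1.5 times in 10 of 11951 genes.

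Counts were rounded and fitted in edgeR 4.0.16 (R 4.3.3; TMM, filterByExpr, robust quasi-likelihood, 13709 genes), with two-sided p-values Benjamini-Hochberg adjusted over all genes. The standard error is the log2 fold change over the root of F, and intervals use its t distribution. Fits were tested on simulated data. Within groups no pair of libraries agreed within sampling noise (chi-square per degree of freedom at least 10.5). Other fits used DESeq2 1.42.0, voom of limma 3.58.1, other scalings and filters, limma on log2(TPM + 1) or log2(TPM + 0.1), and leaving out each library. All 10 members are named, with the called genes of the pathway list, 6 fixed partners, 6 marker genes (Muc5ac was not analysed here) and the 3 genes most like Cers6 and Cers3. Genes named outside that rule are said to be so. Of 138 listed symbols in the lists, 13 were not analysed here and 2 matched by another symbol. Members and lists were chosen with earlier results of these data known, and the ratios between genes after their values were seen. Promoter sequences and gene overlaps are from RefSeq, GRCr8; no gene coordinates are given, since rn7 is another build. Ugcg had no promoter entry.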

Additional observations from a re-analysis of the deposited data

Results flagged for a closer look

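For 59 values, the controls were examined for a single library far from the rest; 4 values had one, and about 2.95 would by chance at 1 in 20. Cers4 measured 375 TPM in control a against 262 to 268 TPM in the others, a gap of 0.949 of the range. The share of Cers5 in the ceramide synthase sum was 42.9% in control b against 50.1% to 50.9%, a gap of 0.905. The keratin gene Krt77 measured 47.2 TPM in control b against 15.0 to 17.9 TPM, a gap of 0.910. The summed T cell markers were 3.14 TPM in control d against 2.57 to 2.62 TPM, a gap of 0.912. The UVB group, with 3 libraries, was not examined.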

How the results depend on the processing

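No paired analysis was possible because no column could be tied to a numbered sample of the labels. Of the 10 members, 3 were called under DESeq2 (2 higher) and 0 under log2(TPM + 1) with every gene above 0 (0 lower); over the fits that left out 1 library, 0 to 2 were called, 0 to 1 higher and 0 to 1 lower. Of the pathway genes, 11 were called under DESeq2 (7 higher, 4 lower) against 6, and 2 higher in each of the 3 TPM fits against 4; without 1 library, 3 to 7 were called, 2 to 5 higher and 1 to 3 lower. The cause of these differences was not tested, except that fewer libraries enter the last fits. Signs changed between the fits without 1 library for Sptlc3 (-0.39 without UVB c, up to 0.42 without UVB a), Kdsr (-0.074 without UVB c, 0.019 without control d, 0.053 without UVB a), Krt10 (-0.10 without UVB c to 0.21 without UVB b), Alox12b (-0.010 without UVB c, up to 0.59 without UVB b) and Acta1 (-0.16 without UVB b, 0.032 without control c, 0.15 without UVB c), none of them called. CPM in place of TPM put Cers4 at 53.8% of the ceramide synthase sum in controls and 64.2% after UVB, against 41.8% and 52.5%, and Cers5 at 37.6% and 27.8%, against 48.6% and 37.9%, because CPM is not corrected for length. The direction between groups was the same in both units.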
